A study of Zea mays with 2 samples.

Results

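The O2 sites of maize chromosome 7 are the regions on that chromosome where immunoprecipitation with an antibody against the transcription factor Opaque2 (O2) recovered more DNA fragments than the control. They were chosen by chromosome alone, with no threshold beyond the one the peak caller had applied. Chromosome 7 carried 223 of the 2567 peaks in the list marked release 26 (the later list) and 144 of the 1686 peaks in the list marked release 15 (the earlier list). Both lists come from the same pair of libraries: 1 made with anti-O2 and 1 made with rabbit IgG, each from wild-type endosperm, the storage tissue of the kernel, collected 15 days after pollination. The antibody was raised in rabbits against recombinant full-length O2. With a single library per antibody, replicate error could not be estimated and the libraries were not tested against each other. Total read depth is unknown, and intervals cover counting error only. Positions are those each list gives, counted from 1, and belong to the later list unless the earlier one is named.

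O2 is a basic leucine zipper protein that binds DNA elements with an ACGT core and activates storage protein and metabolic genes of the endosperm. Chromosome 7 holds the O2 gene itself. It also holds gz50 and gz27, genes of gamma-zeins, which are cysteine-rich storage proteins laid down in protein bodies. In the gene table at hand (assembly Zm-B73-REFERENCE-NAM-5.0) the O2 gene, gz50 and gz27 are all on chromosome 7, and gz27 is the next gene after gz50. That assembly is not stated to be the one behind either peak list, so sites are given by position and none was assigned to these genes. No genome sequence of either release was used here, and so no site is shown by its bases.

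The chromosome 7 sites were close to those of the rest of the genome in number per length and in strength. Later sites lay at 1.27 per Mb between the outermost summits (exact Poisson 95% interval 1.11 to 1.45), the fifth highest of 10 chromosomes. The other 9 ran from 1.08 on chromosome 6 to 1.37 on chromosome 2. The earlier density was 0.832 per Mb (0.702 to 0.980), also at rank 5, between 0.680 on chromosome 10 and 0.911 on chromosome 3. The interval of chromosome 7 overlapped the range of the others in both lists. A comparison of 1 chromosome with 9 cannot give a permutation p under 0.1, so none was computed.

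Summit pileup, the number of fragments stacked at the highest point of a site, had a median of 28 on chromosome 7 in the later list (quartiles 19 and 52.5), against 29 over the 2332 sites of the other chromosomes. The 95% interval of the chromosome 7 median, from order statistics over sites, was 25 to 33 and covered the value of the others. The median background at the same summits, recovered from the authors' fold, was 2.85 in units of pileup, against 2.94 elsewhere. Median fold enrichment, which is pileup plus 1 over background plus 1, was 7.74 (6.86 to 8.64) against 7.62. Earlier sites had a median pileup of 27 against 28 and a median fold of 8.74 (7.67 to 9.97) against 8.02. That fold was the second highest of 10 chromosomes, and the others ran from 7.52 to 9.22. With a stricter -log10 q minimum this fold had rank 4 (minimum 5) or rank 5 (minimum 10). In the later list the fold had rank 5 with every site, rank 4 with the minimum of 5 and rank 6 with that of 10. Median site length was 374 bp (265 to 698) in the later list and 419.5 bp (296 to 736) in the earlier list.

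**Figure D1:**
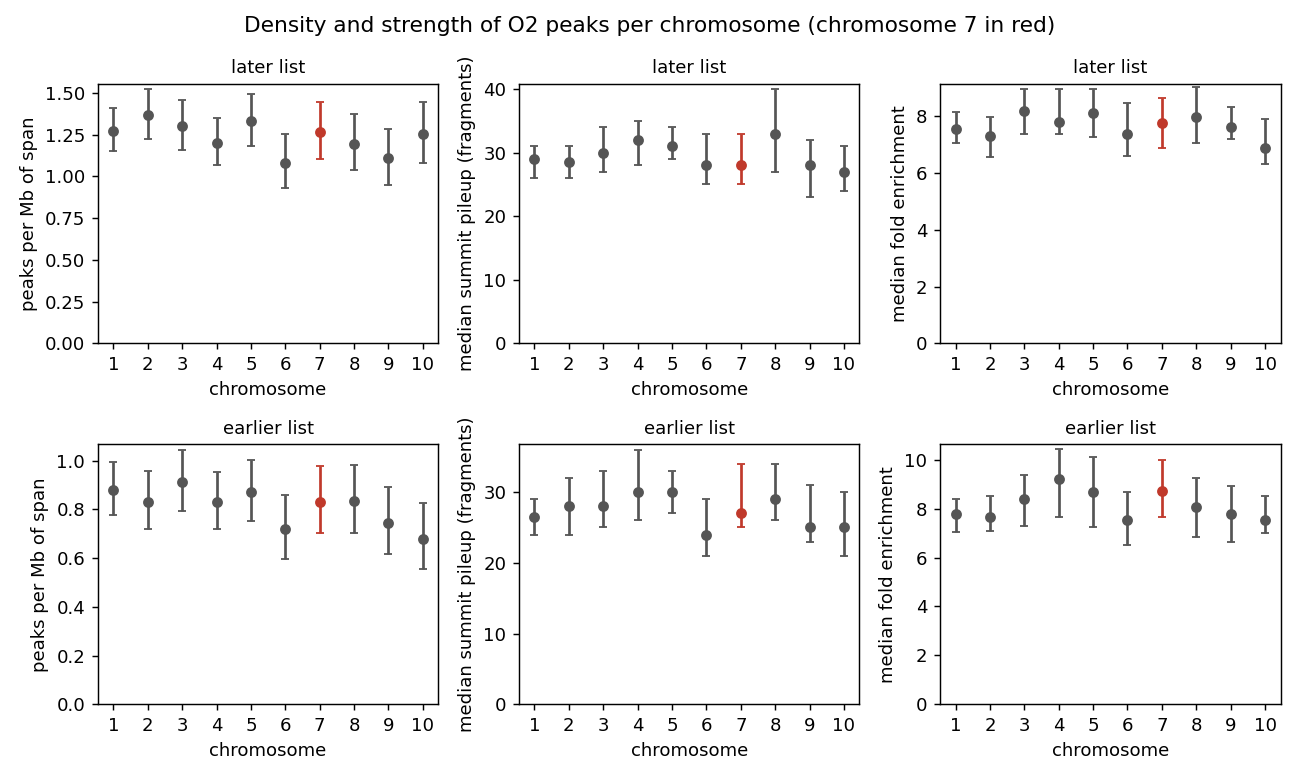
Peaks per Mb of span, median summit pileup (fragments) and median fold enrichment for chromosomes 1 to 10, with the later list above and the earlier list below; points are the values and bars 95% intervals (exact Poisson for density, order statistics for medians). Chromosome 7, in red, has 1.27 and 0.832 peaks per Mb, and its bars overlap those of most other chromosomes in every panel.

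Sites were listed in every full bin of chromosome 7. The 17 full bins of 10 Mb held 8 to 19 later peaks with a median of 13, whereas the 183 full bins of the other chromosomes held 3 to 27 with a median of 12; a range widens with the number of bins, so the 2 ranges are not comparable. Earlier peaks per bin of chromosome 7 numbered 4 to 13 (median 8) and elsewhere 1 to 21 (median 8). The highest counts were both 19, from 140 to 150 Mb and from 160 to 170 Mb (exact Poisson 95% interval of each, 11.4 to 29.7). For earlier peaks the bin from 140 to 150 Mb was also the fullest, with 13, and the one from 160 to 170 Mb had 11. The lowest later counts were 8, from 20 to 30 Mb and from 50 to 60 Mb. The Mb positions of the 2 lists belong to different releases and were not converted.

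The variance of the bin counts divided by their mean, which averages 1 for counts scattered at random and above 1 for clustered ones, was 0.800 on chromosome 7 in the later list and 0.706 in the earlier list. These were the lowest values of the 10 chromosomes in both lists. The next lowest, both on chromosome 10, were 0.987 and 0.747, and the highest, both on chromosome 2, were 2.06 and 2.34. The measure was an addition made with the data in view, and it was not tested. It depended on the bins: when these were shifted by 5 Mb the later value was 1.20, and chromosome 8 was lower at 0.800. Over 6 alternatives per list (other bins, stricter q, close neighbours counted once) chromosome 7 had the lowest or the next to lowest value each time.

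**Figure D2:**
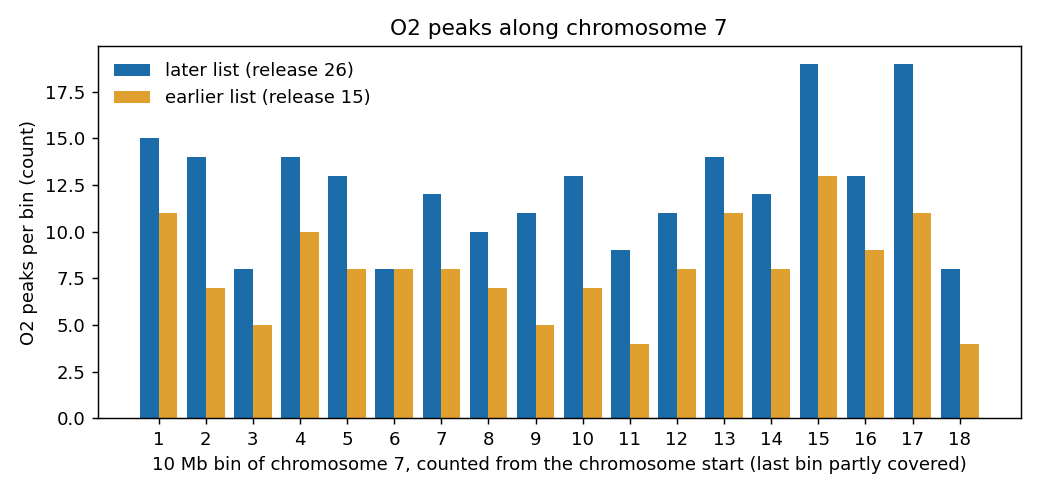
Number of O2 peaks in each 10 Mb bin of chromosome 7, numbered from the chromosome start, for the later list (blue) and the earlier list (yellow); bin 18 is only partly covered. Full bins hold 8 to 19 later and 4 to 13 earlier peaks, and bin 15 is the fullest, alone in the earlier list and together with bin 17 in the later one.

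The widest stretch without a site lay between the summits at 18788703 and 26250770 of the later list. It measured 7.46 Mb and was the second longest of 2545 gaps on all chromosomes. A gap of 7.09 Mb between 18777697 and 25869264 was the widest of chromosome 7 in the earlier list as well, where it ranked 14th of 1671. The next gap of chromosome 7 in the later list was only 3.76 Mb, and the median gap was 511995 bp, against 514029 bp elsewhere. With the first and last site left out, the 25% of the length next to either end held together 122 of 221 later sites (55.2%) and 79 of 142 earlier ones (55.6%). Both shares lay within those of the other chromosomes, which ran from 49.7 to 62.6% in the later and from 48.8 to 61.9% in the earlier list. The part before the first boundary had 56 later sites and the part after the last one 66.

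Strong sites made up a share of chromosome 7 close to that over all chromosomes. A fold of at least 20 was listed for 26 of 223 later sites, or 11.7% (exact binomial 95% interval 7.76 to 16.6), where the share over all 2555 chromosomal peaks was 12.4%. Among earlier sites it was 13 of 144, or 9.03% (4.89 to 14.9), with 11.8% over all chromosomal peaks. These counts lie near the background share and set chromosome 7 apart in neither list. The later sites nearest to that fold had values of 18.7 and 20.6. In the earlier list they had 19.97 and 21.3, so 1 site fell just short. The 23 chromosome 7 sites with the most pileup above background held 33.2% of that excess in the later list, and on the other chromosomes the corresponding share ran from 28.2 to 32.9%. In the earlier list the share of chromosome 7 was 30.2%, rank 3 of 10, and the highest of the others was 32.0%.

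Stretches of chromosome 7 with many and with no strong sites are given here as a description. From 60 to 80 Mb of the later list, 7 of 22 sites had a fold of at least 20 and the median pileup was 53.5. From 100 to 130 Mb, 0 of 34 sites reached that fold, their highest value was 17.5, and the median pileup was 25. The full bin from 140 to 150 Mb also had 0 among its 19 sites, with a median pileup of 23, whereas the equally full bin from 160 to 170 Mb had 3. The earlier list showed 4 of 15 sites from 60 to 80 Mb, with a median pileup of 48, and 0 of 23 from 100 to 130 Mb, with a median of 26. The shares over all chromosomal peaks were 12.4% (later) and 11.8% (earlier). Other bins had 0 as well, among them the later ones from 10 to 20 Mb (14 sites) and from 50 to 60 Mb (8 sites). In the earlier list the bin from 30 to 40 Mb had 3 of 10 sites. These stretches were picked with their values known, and no stretches of other chromosomes were set beside them.

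No chromosome 7 site was among the 10 highest folds of either list, while 2 were among the 10 highest pileups of each. The highest fold of chromosome 7 in the later list, 41.3, ranked 16th over all chromosomes. This site, chr7:72636571-72637255, had a pileup of 110 over a background of 1.69. The second, chr7:131748359-131748863, combined a fold of 36.1 with 157 fragments over 3.37, and it was the only site among both the 10 highest folds and the 10 highest pileups of the chromosome. The sites at chr7:35208539-35209119 and at chr7:69668407-69669078 shared the same values, fold 35.8 with 105 fragments over 1.96.

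The other 6 of these 10 sites had folds of 27.3 to 33.2. The one at chr7:47475629-47476145 reached a fold of 33.2 with a pileup of only 77, over the lowest background the list holds, 1.35. This is a floor value shared by 16 sites of chromosome 7 and 171 of the other chromosomes, so it does not mark an unusual site. A site at chr7:157436645-157437185 (fold 32.8) also showed 105 fragments. It was followed by sites at chr7:72057533-72058031 (fold 30.2, pileup 99) and at chr7:98393294-98393780 (fold 29.4, pileup 87). The last were at chr7:32081315-32081857 (fold 28.5, pileup 94) and at chr7:164734738-164735198 (fold 27.3, pileup 83). All 10 stood on a background of 1.35 to 3.37.

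The tallest sites were mostly different ones. The site at chr7:49158284-49158900 had the highest pileup of chromosome 7, 265, which is rank 4 over all chromosomes of the later list. Its background was 18.6, which equals 19 steps of the value taken as 1 IgG fragment (0.979), and its fold was 13.6. The tallest earlier site of chromosome 7, chr7:49140277-49140899, had the highest pileup of all chromosomal peaks, 266 over 20.9 (21 steps of 0.995), and a fold of 12.2. At chr7:61550786-61551339 of the later list the pileup was 236, over 7.83 (8 steps), with a fold of 26.8. Second tallest among the earlier sites was chr7:61532719-61533296, with 162 fragments over 3.24 and a fold of 38.5.

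Below these came a site at chr7:76444414-76444899, with a pileup of 199 over 12.7 and a fold of 14.6. A site at chr7:63937072-63937619 had 169 over 6.85 (fold 21.7), and one at chr7:10098897-10099410 had 148 over 11.7 (fold 11.7). The remaining 4 of the 10 tallest had pileups of 124 to 139. They were at chr7:86911328-86912003 (fold 27.2), chr7:49528787-49529318 (fold 17.6), chr7:29432155-29432671 (fold 20.9) and chr7:5133791-5134488 (fold 25.4). Of the 10 tallest sites, 7 had a background of at least 5, against 0 of the 10 with the highest fold. Over all 223 later sites of the chromosome the share was 12.1%. Fold divides by background, so a ranking by fold favours low background, and the contrast between the 2 rankings is partly built in.

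The place of chromosome 7 by its share of sites on a raised background depended on the minimum used. In the later list 27 of 223 sites (12.1%, exact binomial 95% interval 8.13 to 17.1) had a background of at least 5, where the share over all chromosomal peaks was 9.63%. Earlier sites with one numbered 17 of 144 (11.8%, 7.03 to 18.2), where the share over all chromosomal peaks was 5.89%. At this minimum chromosome 7 had the highest share of the 10 chromosomes in both lists, but in the later one chromosome 8 was next with 12.08%, and in the earlier one the next had 8.39%. Background was a whole number of IgG steps at 40.8% of later and 38.2% of earlier chromosome 7 sites. Each step is a little under 1, so a site at 5 steps fell just short of the minimum of 5. The minimum of 5 was set with the data in view, and the difference was not tested. Of the 5 minimums tried it was the only one that put chromosome 7 first in either list. Among later sites chromosome 7 had rank 6 at a minimum of 3, rank 4 at 4 and rank 3 at both 7 and 10. Among earlier sites it had rank 2 at 3, 4 and 7 and rank 4 at 10. A highest share is therefore not a result about chromosome 7.

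High pileup and raised background went together on chromosome 7, as on the other chromosomes. Of its 20 later sites with a pileup of at least 100 (8.97% of its sites, 7.79% over all chromosomes), 10 stood on a background of at least 5. A pileup of that height was listed for 7 of 144 earlier sites (4.86%, with 4.7% over all chromosomes), and 2 of these had such a background. Among the tallest 10% of sites, 10 of 23 did on chromosome 7 and 46 of 234 elsewhere. The same counts in the earlier list were 5 of 15 and 17 of 154. The minimum of 5 was set with the data in view, no other was tried for these tallest sites, and the differences were not tested. Across the 223 later sites, pileup and background had a Spearman rho of 0.438, against 0.393 across the sites of the other chromosomes. A site on a raised background needs a higher pileup to be listed at all, so some relation of this sign is built into the lists. The sites also share their libraries, so this is a description.

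The 27 sites with a raised background were of mixed strength, with folds from 2.60 to 26.8 and a median of 6.47. They included the weakest site of the chromosome by fold, chr7:48728624-48728888, with 27 fragments over 9.79. Its neighbour at chr7:48747180-48747492 had the highest background of chromosome 7 in the later list, 19.6, under a pileup of 61 (fold 3.01). The tallest site of the chromosome is the next one along, and its summit is 411296 bp further. Another weak site, chr7:114416644-114416992, showed 17 fragments over 5.87 (fold 2.62).

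The other 2 of the 5 lowest later folds stood on less background, and the last of them was tied. The last site of the chromosome, at chr7:176442544-176442904, had a pileup of 10 over 2.33 (fold 3.30), and the site at chr7:83288112-83288376 had 19 over 4.89 (fold 3.39), values shared by the site at chr7:160599830-160600135. The first site of the chromosome, at chr7:514248-514634, was stronger, with a pileup of 57 and a fold of 11.3. The lowest earlier folds were 3.27 at chr7:6308018-6308347, 3.41 at chr7:25869107-25869434 and 3.51 at chr7:121621986-121622413. A -log10 q under 2 was listed for 2 later chromosome 7 sites (0.897%) and for 0 of 144 earlier ones (0%, exact binomial upper limit 2.53%), where the shares over all chromosomal peaks were 1.17% and 1.07%.

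**Figure D3:**
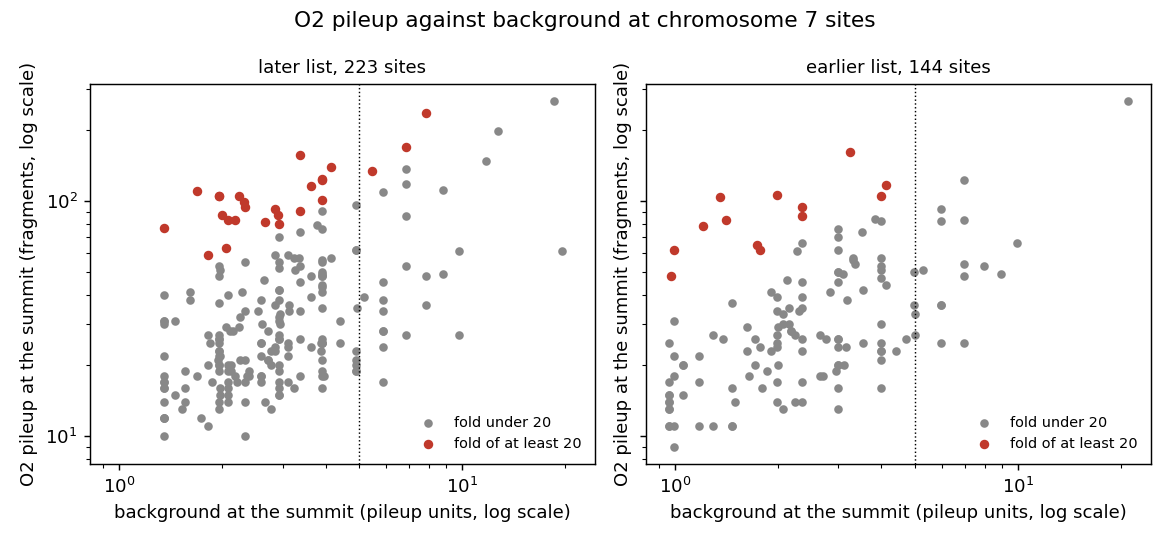
Pileup (fragments) against background (units of pileup) at the summit of every chromosome 7 site, both on log axes, for the 223 later and the 144 earlier sites; red points have a fold of at least 20 and the dotted line marks a background of 5. The tallest point of each list, at 265 and 266, lies far to the right and is not red, and 3 of the 26 red later points lie right of the line.

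Sites with a close neighbour were few and of moderate strength. In the later list 6 of 223 chromosome 7 sites (2.69%, exact binomial 95% interval 0.994 to 5.76) had the next summit within 10 kb, and the share over all chromosomal peaks was 2.35%. Among earlier sites it was 2 of 144 (1.39%, 0.169 to 4.93), and the share over all was 1.73%. Within 50 kb the numbers were 19 (8.52%, with 8.02% over all) and 9 (6.25%, with 6.01% over all). The 11 later sites in runs within 10 kb had pileups of 17 to 57, a median of 27 and folds of 4.07 to 16.1, so that none reached a fold of 20.

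The only run of 3 sites spanned 7632 bp between its outer summits, at chr7:140458962-140466913 of the later list. The pileups were 53, 21 and 23 and the distances between the summits 2244 and 5388 bp. The first summit had a background of 6.85, the second 2.72 and the third 4.89. An earlier pair at chr7:140422331-140430292 had its summits 7612 bp apart with pileups of 53 and 23, which are the values of the outer sites of the run. No peak between them was listed there. On the other chromosomes 2 runs of 3 sites were found in the later list and 0 in the earlier.

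The closest pair had summits 559 bp apart, at chr7:10517585-10517937 and chr7:10518111-10518535 of the later list. Its pileups were 22 and 30, both over the lowest background of the list, 1.35. A pair at chr7:156703466-156705722 had summits 1834 bp apart, pileups of 41 and 21 and folds of 16.1 and 7.47. The pair at chr7:2617790-2621353 was more even, with summits 3181 bp apart, pileups of 31 and 27 and folds of 13.6 and 9.47. The least even was the pair at chr7:165793487-165800590, with 57 and 17 at summits 6778 bp apart. It opened a longer row of 4 sites, each within 50 kb of the next, over 84330 bp. The second earlier pair, at chr7:125118936-125120883, had summits 1607 bp apart and pileups of 22 and 11.

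**Figure D4:**
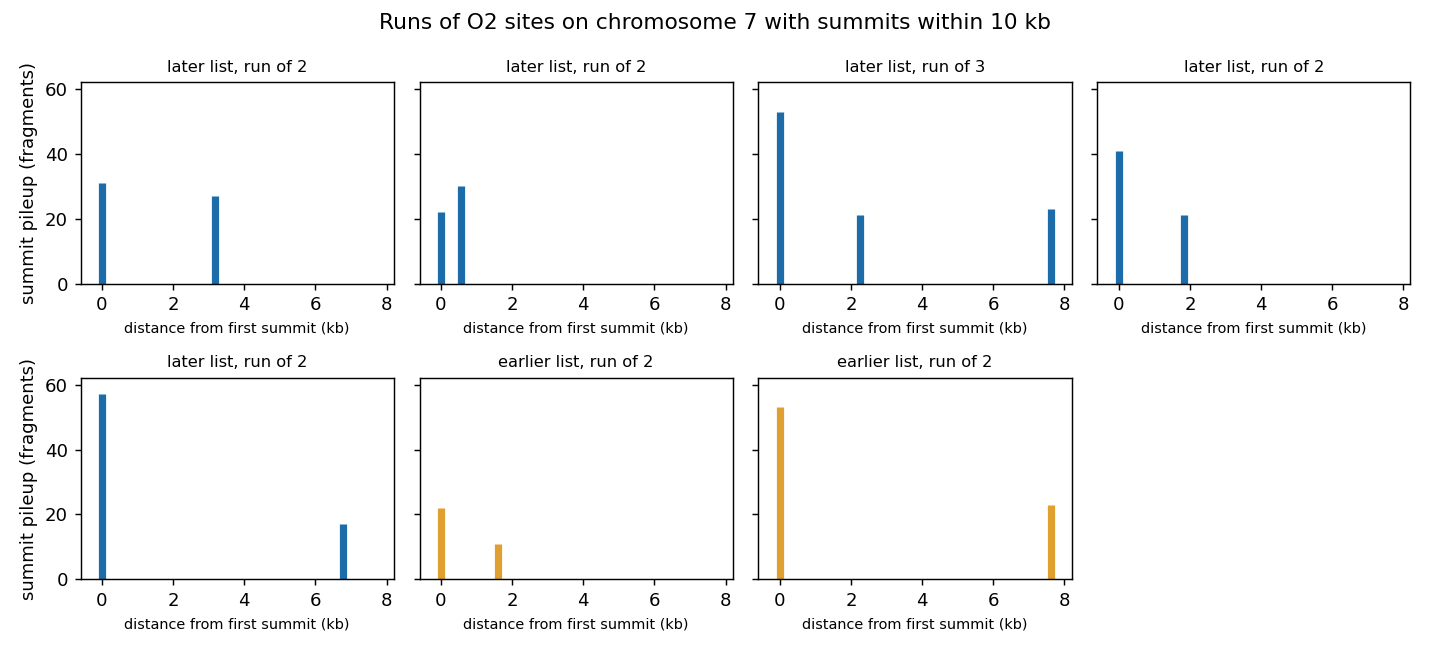
Summit pileup (fragments) against distance from the first summit (kb) for the 5 runs of the later list (blue) and the 2 of the earlier list (yellow) on chromosome 7. The run of 3 has pileups of 53, 21 and 23, and the earlier pair at 7612 bp has 53 and 23.

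To set the same site side by side in both lists without converting positions, sites were linked by the spacing to their neighbours. A link needed at least 2 neighbours within 1 Mb at matching distances (within 500 bp) and had to be the best in both directions. This linked 53 chromosome 7 sites, which is 23.8% of the later and 36.8% of the earlier ones. Over all chromosomes 25.3% of later and 38.5% of earlier sites were linked. Neighbours up to 3 Mb away gave 111 links, 49.8% of later and 77.1% of earlier chromosome 7 sites (45.7% and 69.4% over all), with the same partner for all 53. The links kept the order of the sites along chromosome 7 in both settings, with 0 out of order. On the other chromosomes 0 were out of order at 1 Mb and 2 at 3 Mb.

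Pileup was often nearly the same in both lists. Among the 53 links it was higher in the later list at 29, lower at 12 and equal at 12, and 30 lay within 10% of the earlier value. On the other chromosomes it was higher at 375 of 594 links, lower at 143 and equal at 76. The median log2 ratio of later to earlier pileup was 0.05 (quartiles 0 and 0.47), against 0.09 on the other chromosomes. The largest fall was to 0.885 times the earlier pileup, while 6 sites (11.3%) had at least 2 times as much, against 9.93% elsewhere. At a reach of 3 Mb these were 14 of 111 (12.6%, with 11.4% elsewhere). Both lists were made from the same libraries, so equal values are no replicate check.

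Several of the strongest later sites were among those with far more pileup in the later list. They were picked by their later values, and such a pick favours a high ratio of later to earlier pileup. At chr7:131748359-131748863, the second highest fold of chromosome 7, pileup was 157 later and 17 earlier, with folds of 36.1 and 9.18. Background moved in the same direction, from 0.961, the lowest value of the earlier list, to 3.37. For the site at chr7:69668407-69669078 the later pileup was 105 and the earlier one 26. Others were linked only at a reach of 3 Mb. The largest ratio, 12.1, was at chr7:126298745-126299255, a site singled out after its values were seen, with 109 fragments in the later list and 9 in the earlier one. This pair was linked only at 3 Mb, and 9 is the lowest earlier pileup of chromosome 7. The earlier peak had the shortest length there, 296 bp, and its summit, 126264040, lay close to its end, 126264050.

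Among the 10 tallest sites and the 10 highest folds, those linked only at this reach with at least 2 times the pileup were at chr7:63937072-63937619 (169 and 50), chr7:10098897-10099410 (148 and 47), chr7:76444414-76444899 (199 and 82) and chr7:72636571-72637255 (110 and 48), the site with the highest fold. Of the 20 sites linked at 3 Mb with a later fold of at least 20, 7 had at least 2 times the pileup (35%), against 42 of 174 (24.1%) on the other chromosomes. At a reach of 1 Mb the order was the opposite, with 2 of 11 (18.2%) on chromosome 7 and 22 of 93 (23.7%) on the others. Neither difference was tested. Picking sites by their later fold favours a high ratio: over all links at 3 Mb the share was 12.6% on chromosome 7 and 11.4% on the others. Background was also higher in the later list at all 14 of the sites with this ratio at a reach of 3 Mb. Part of this was fixed by the lists. The lowest background held was 1.35 in the later list and 0.961 in the earlier one, so a site near the earlier minimum could only have a higher later value. Over all 111 links of chromosome 7 the median background was 3.11 later and 2.36 earlier.

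Other strong sites had nearly equal values. The tallest site had 265 later and 266 earlier. At chr7:35208539-35209119 the pileup was 105 and at its partner, chr7:35196080-35196691 of the earlier list, 104. The latter had the highest earlier fold of the chromosome, 44.6, against 35.8, over a lower background of 1.35. The third and the fourth earlier folds, 35.80 at chr7:157398317-157398864 and 35.79 at chr7:164695241-164695760, had pileups of 106 and 78, and their later partners had 105 and 83. The fifth, 34.8 at chr7:9198909-9199465, had 83 and its later partner 81. The earlier site with a pileup of 123 at chr7:49510866-49511425 had 137 in the later list. The earlier site at chr7:61532719-61533296, with the second highest fold, and the one at chr7:29419918-29420449, with a pileup of 117, had no partner by spacing.

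Linked sites were stronger than the rest. A link needs a site that both lists hold, so some difference of this sign may be built into the rule. On the other chromosomes the median later fold was 9.16 at linked sites and 7.62 over all sites, against 10.1 and 7.74 on chromosome 7. Among later sites the 53 linked chromosome 7 sites had a median pileup of 46 and the 170 others 25. For earlier sites the medians were 35 for the 53 and 26 for the 91 others. Across the 53 links, fold in the later list followed fold in the earlier list with a Spearman rho of 0.888, against 0.874 on the other chromosomes. For pileup rho was 0.776 on chromosome 7 and 0.849 on the others. These values describe sites that share both libraries.

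**Figure D5:**
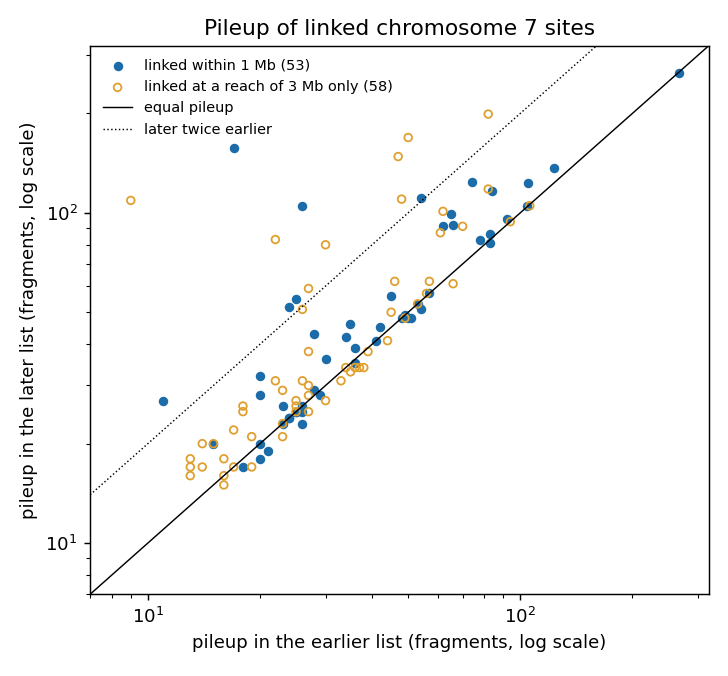
Pileup (fragments, log axes) of chromosome 7 sites in the later list against the earlier list, for 53 sites linked within 1 Mb (blue) and those added at a reach of 3 Mb (open yellow); the solid line marks equal pileup and the dotted line 2 times as much in the later list. Most points lie near the solid line, 14 lie on or above the dotted one, and none lies below 0.885 times the earlier pileup.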

How the data were processed

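Per the labels' protocols, chromatin from sonicated endosperm nuclei was precipitated with anti-O2 or IgG, amplified for 15 PCR cycles and size-selected near 500 bp. Per the submitters' processing notes, Bowtie2 and MACS2 (2.0.10 and 2.1.0) were used. For the build, read filters and calling threshold: not given in the sources used here. Deposited pileup is a signal height at the summit, and the deposited fold is a ratio to the caller's background. The deposited -log10 p and q values carry spreadsheet errors in the later list's headers; the q column equals the summit list's score for all 2567 peaks, and summit positions also matched in both lists. The summit lists are filed under IgG but hold the O2 peaks. Peak names contain "uniq" in all 1686 earlier peaks and in 0 later ones.

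Background was recovered as (pileup + 1) / fold - 1. IgG steps are whole multiples within 0.005 of a step. Intervals are 95%. Bins of 10 Mb start at position 1. Linking at a reach of 1 Mb was tested on simulated lists, and the reach of 3 Mb was not. Pairs with too few neighbours stay unlinked, so an unlinked site may be in both lists. A first requirement on the share of all true pairs was not met in that test and was replaced by one on the pairs the rule can link. Minimums of 5 for background and 100 for pileup, and the variance of bin counts, were chosen with the data in view. Named sites are the 10 highest by fold and by pileup, the 5 lowest by fold, the ends, runs and extreme bins of the later list, and the 5 highest, the 3 lowest by fold, runs and fullest bin of the earlier one. Members and rules were chosen with earlier results of these data known. Python 3.11.15, NumPy 2.4.6, pandas 2.3.3 and SciPy 1.17.1 were used.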

Additional observations from a re-analysis of the deposited data

How the results depend on the processing

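Of 68 alternative values, 34 stayed within their interval or within 1.5 times and 34 did not, most because the alternative changes the quantity. At a -log10 q of at least 10 chromosome 7 had 147 later peaks, densities of 0.844 (later) and 0.590 (earlier) per Mb, median pileups of 42 and 39 and median folds of 10.5 and 10.7, and 17.7% of later sites had a fold of at least 20. By density chromosome 7 then held rank 7 among later and rank 3 among earlier peaks. Mean pileup was 43.5 and 39.6. Without the added 1, median fold was 10.8 and 12.9. A fold of at least 10 was reached by 34.5% and 40.3% of sites, and one of at least 30 by 3.14% and 4.17%. The next summit lay within 1 kb at 0.448% and 0%, within 50 kb at 8.52% and 6.25% and within 100 kb at 12.6% and 9.72%. Bins of 5 Mb gave up to 20 earlier peaks per 10 Mb. Links numbered 16 with 3 matching neighbours and 111 at a reach of 3 Mb. Alternatives chosen after the data had been seen were the background minimum and the spread over bins. A background of at least 3 was found at 40.4% of later and 32.6% of earlier sites, of at least 4 at 17.9% of later ones, of at least 7 at 4.93% and 2.78%, and of at least 10 at 1.79% and 0.694%. Variance over mean in the later list was 1.21 with bins of 5 Mb and 0.370 with neighbours within 50 kb counted once. No paired analysis was possible because each antibody has 1 library, and for the same reason no replicate could be left out. Depth is unknown, so absence of a site from a list says nothing about absence of binding.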
